A study of Mus musculus with 48 samples.

Results

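Liver RNA of 48 male C57BL/6J mice was hybridised to Affymetrix whole-genome mouse arrays, with 1 array per mouse, and the signals described here are those of 9 genes of iron handling. The genes are Scara5, Hamp, Tfrc, Tfr2, Trf, Slc40a1, Fth1, Hfe and Cp, and they were chosen by name, with the lower Scara5 signal of the 4-wk mice already known. All probe sets that carry only 1 of these symbols were taken, which gave 23 of the 45037 probe sets tested and covered 8 of the 9 genes. The only other probe set of a listed gene is shared by Trf and Srprb, so its values belong to neither gene alone, and 3 Tfrc probe sets are Affymetrix controls that were not tested.

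All mice ate the high-fat diet with a low protein-to-carbohydrate ratio (L-P/C-HF) for 10 weeks. Afterwards 12 mice were kept on H-P/C-HF, the high-fat diet with a high protein-to-carbohydrate ratio, for 4 weeks and 12 stayed on L-P/C-HF for the same time (4-wk). A further 12 mice on H-P/C-HF and 12 on L-P/C-HF were sampled at 2 days (2-d). The array of 1 H-P/C-HF 2-d mouse, B25, was left out, so that group holds 11 mice and 47 arrays were used. The methods of the study leave the same array out as an outlier. The 4-wk mice were also older and were killed on other days than the 2-d mice. By the methods of the study, all mice had a glucose tolerance test with tail-vein bleeds shortly before the diets were split. The 4-wk mice alone had a further such test, after an overnight fast, about a week before they were killed. Time on the diet, age, day of sampling and these procedures therefore cannot be told apart. Of 11 hepatocyte markers 10 were measured, and albumin (Alb) had a 4-wk minus 2-d difference of 0.03 log2 in H-P/C-HF and 0.02 in L-P/C-HF (limma, adjusted p = 0.703 and 0.874). Hnf4a, a transcription factor of hepatocytes, was lower at 4-wk in both diets, at -0.30 and -0.29 log2 (adjusted p = 5.65e-04 and 6.80e-04), and did not pass with RNA quality as a covariate (adjusted p = 0.0958 and 0.299).

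Iron circulates bound to transferrin (Trf), and cells take it up through transferrin receptor 1 (Tfrc). Hepatocytes store it in ferritin, whose heavy chain is encoded by Fth1, and Scara5, a class A scavenger receptor, binds ferritin at the cell surface. Ferroportin (Slc40a1) is the iron exporter, ceruloplasmin (Cp) oxidises the exported iron, and hepcidin (Hamp), a hormone secreted by hepatocytes, leads to the degradation of ferroportin. Hfe and transferrin receptor 2 (Tfr2) take part in sensing iron for the control of Hamp, next to the BMP and SMAD pathway.

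Scara5 had a lower signal at 4-wk than at 2-d in both diets. On probe set 1451204_at its normalised log2 signal was 6.89 at the lowest, 7.69 at the median and 8.88 at the highest in H-P/C-HF 4-wk livers, against 8.08, 9.53 and 10.45 in H-P/C-HF 2-d livers. In L-P/C-HF it was 6.55, 8.09 and 8.89 at 4-wk, against 8.46, 9.51 and 11.21 at 2-d. All 12 mice of each 4-wk group lay below the median of their 2-d group, and 9 of 12 in H-P/C-HF and 8 of 12 in L-P/C-HF lay below every 2-d mouse of that diet, so the groups overlapped in a few mice only.

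In H-P/C-HF the means were 7.69 ± 0.61 at 4-wk (SD, n = 12) and 9.55 ± 0.65 at 2-d (SD, n = 11). In L-P/C-HF they were 7.97 ± 0.82 at 4-wk and 9.52 ± 0.71 at 2-d (SD, n = 12 each). The 4-wk minus 2-d difference was -1.86 log2 (SE 0.27) in H-P/C-HF, a level of 0.275 of that at 2-d, and -1.55 (SE 0.27) in L-P/C-HF, a level of 0.342. Because the gene was picked for this difference, no test of it is given. Of the brightest probe sets of 18193 genes it ranked 1 from the lowest 4-wk minus 2-d difference in each diet. Over all 45037 probe sets it ranked 1 in H-P/C-HF and 2 in L-P/C-HF. Over all probe sets, 6.69% passed an adjusted p of 0.05 (limma) for time in H-P/C-HF, 2122 higher and 890 lower, and 6.87% in L-P/C-HF, 2426 higher and 670 lower.

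**Figure D1:**
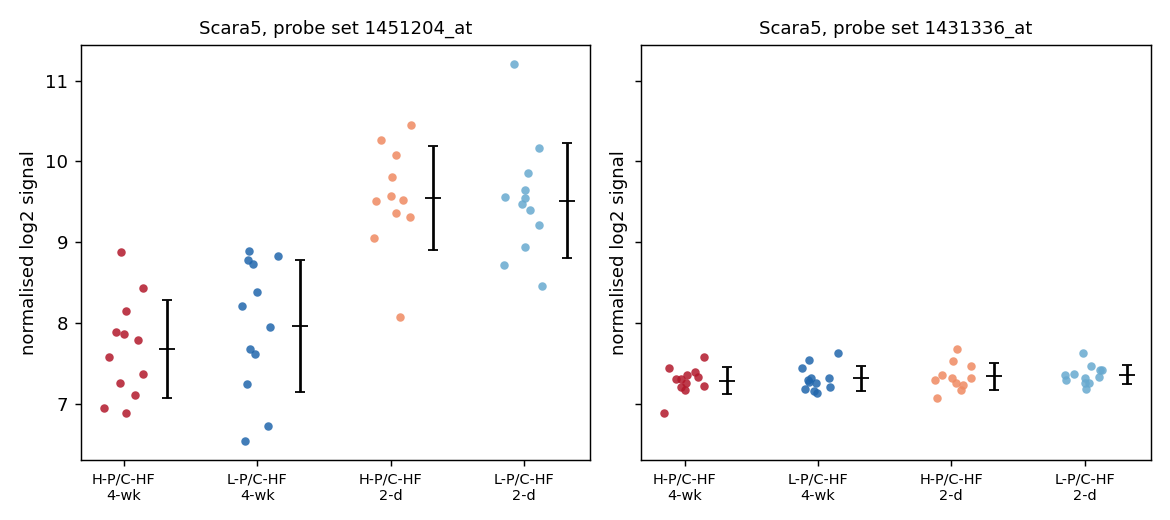
Normalised log2 signal (vertical axis) of both Scara5 probe sets in the 4 groups, 1 point per mouse, with the mean and SD beside the points. On 1451204_at the 4-wk means of 7.69 and 7.97 lie below the 2-d means of 9.55 and 9.52, while on 1431336_at the 4 means lie between 7.30 and 7.37.

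The second Scara5 probe set, 1431336_at, did not share this pattern. Its means were 7.30 ± 0.17 (SD) in H-P/C-HF 4-wk, 7.32 ± 0.15 in L-P/C-HF 4-wk, 7.35 ± 0.17 in H-P/C-HF 2-d and 7.37 ± 0.12 in L-P/C-HF 2-d livers, and its 4-wk minus 2-d differences were -0.05 in H-P/C-HF and -0.04 in L-P/C-HF. Which part of the transcript each probe set reads was not examined, and the mean of both probe sets gives -0.96 in H-P/C-HF and -0.80 in L-P/C-HF.

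The measure of RNA quality also moved with time. The 3′ minus 5′ signal of the Gapdh and beta-actin control probe sets, which is larger where RNA is more degraded, was 0.27 ± 0.11 (SD) in H-P/C-HF 4-wk and 0.24 ± 0.07 in L-P/C-HF 4-wk livers, against 0.48 ± 0.13 in H-P/C-HF 2-d and 0.48 ± 0.19 in L-P/C-HF 2-d livers. With this measure as a covariate the Scara5 difference was -2.09 in H-P/C-HF and -1.81 in L-P/C-HF, as large as without it. Some acute phase genes then had lower differences, among them Saa2 at -2.32 in H-P/C-HF and -2.37 in L-P/C-HF. Mt2, of the same list, was at -2.33 and -2.01, so the rank of 1 did not hold with the covariate. Over all probe sets the numbers called for time were 622 in H-P/C-HF and 464 in L-P/C-HF with the covariate, against 3012 and 3096 without it. Since the measure itself differed between the times, the covariate also makes time differences less precise. The SE of the Scara5 difference was 0.31 in H-P/C-HF and 0.32 in L-P/C-HF with it, against 0.27 in each without it. A call lost with the covariate, here or below, can thus come with a difference that hardly changed.

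None of the other 4 class A scavenger receptors measured (Msr1, Marco, Scara3 and Colec12) was called lower at 4-wk in either diet. Msr1, a macrophage receptor, rose by 0.26 in L-P/C-HF (adjusted p = 0.0206), and Marco, another macrophage receptor, rose by 0.76 there (adjusted p = 0.00641). With the RNA quality covariate these differences were 0.25 and 0.76, and neither call held (adjusted p = 0.305 and 0.119).

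Cell type markers also differed with time, and the members are read from whole liver, in which fewer cells of a type and less RNA per cell cannot be told apart. All 14 markers of Kupffer cells (the resident macrophages of the liver) lay higher at 4-wk in both diets. Of these, 11 were called higher in H-P/C-HF and 13 in L-P/C-HF, beside 6.69% and 6.87% of all probe sets called in either direction. Their medians were 0.84 and 1.02 log2, beside medians of -0.02 and 0.01 over all genes. Clec4f, which marks Kupffer cells, rose by 0.77 in H-P/C-HF (adjusted p = 0.00104) and by 0.89 in L-P/C-HF (adjusted p = 1.01e-04). Their mean signal ranged between 8.35 and 9.85 in H-P/C-HF 4-wk and 8.98 and 10.4 in L-P/C-HF 4-wk livers, against 8.23 to 9.06 in H-P/C-HF 2-d and 8.22 to 9.37 in L-P/C-HF 2-d livers. With the RNA quality covariate 7 and 11 of these 14 were called, and Clec4f passed in L-P/C-HF alone (adjusted p = 0.0666 in H-P/C-HF and 0.0337 in L-P/C-HF).

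Of 10 sinusoidal endothelial markers, 10 were called higher in H-P/C-HF and 9 in L-P/C-HF, and all 10 lay higher in each diet. Of 12 stellate cell markers, 6 and 7 were called higher, and 10 and 12 lay higher. The markers of adventitial fibroblasts and mesothelium, cells that could be caught with the liver's surface and vessels, had median differences of 0.02 in H-P/C-HF and 0.03 in L-P/C-HF over 11 genes, with 2 and 1 called higher. Of 24 acute phase genes, 7 were called lower in each diet and 23 lay below 0. Of the 10 hepatocyte markers 2 were called lower in H-P/C-HF and 1 in L-P/C-HF, with medians of -0.02 and 0.01. Of 6 adipocyte markers 1 was called higher in each diet, of 7 cholangiocyte markers 1 was called lower in L-P/C-HF, and none of 6 erythroid and 7 skeletal muscle markers was called. When RNA quality was a covariate, 11 acute phase genes were called lower in each diet (medians -0.56 and -0.57, against -0.33 and -0.38 without it), 8 and 9 sinusoidal endothelial and 6 and 5 stellate markers were called higher, and no hepatocyte, adventitial, adipocyte or cholangiocyte marker was called. The part of any of these in the Scara5 values was not tested.

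Scara5 signal also varied widely among mice of the same group, with SDs between 0.61 and 0.82. Deviations from the group means over 47 mice were ranked against those of 18192 other genes. The most similar genes were Il1r1, the interleukin-1 receptor (r = 0.69, rho = 0.69), Snx10, a sorting nexin (r = 0.64, rho = 0.60), Egfr, the epidermal growth factor receptor (r = 0.62, rho = 0.53), Serpina3n, an acute phase serpin (r = 0.60, rho = 0.57), and Cadm4, a cell adhesion molecule (r = 0.59, rho = 0.55). Without the 2 mice farthest from the Scara5 median these r were 0.67, 0.55, 0.65, 0.48 and 0.49 in the same order. These genes were picked as the highest of all, so no p is given.

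**Figure D2:**
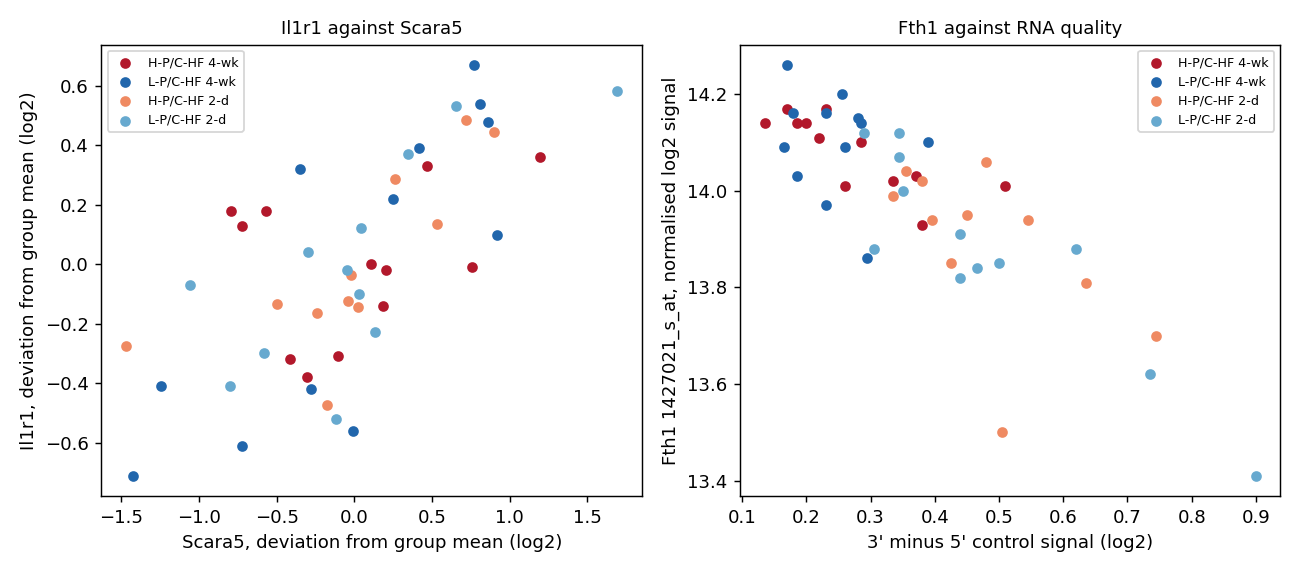
Left, Il1r1 against Scara5 as deviations from the group means (log2), 1 point per mouse, with r = 0.69 over 47 mice. Right, the level of the Fth1 probe set 1427021_s_at (normalised log2 signal) against the 3′ minus 5′ control signal (log2), in which the 4-wk mice sit mostly at low control values and high Fth1 signal.

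Il1r1 itself fell by 0.81 at 4-wk in H-P/C-HF (adjusted p = 1.45e-04, 11 of 12 mice below every 2-d mouse) and by 0.47 in L-P/C-HF (adjusted p = 0.0319). Egfr fell by 0.90 in H-P/C-HF (adjusted p = 0.00193) and by 0.97 in L-P/C-HF (adjusted p = 5.89e-04). Cadm4 had differences of -0.44 in H-P/C-HF (adjusted p = 0.0225) and -0.45 in L-P/C-HF (adjusted p = 0.014). Snx10 and Serpina3n had differences of -0.21 and -0.30 in H-P/C-HF that did not pass (adjusted p = 0.238 and 0.296). With the RNA quality covariate Serpina3n passed, at -0.60 in H-P/C-HF and -0.64 in L-P/C-HF (adjusted p = 0.0358 and 0.0299). The mean of the acute phase genes, a list that holds Il1r1 and Serpina3n, followed Scara5 over the mice with r = 0.51 (permutation p = 1.3e-04, adjusted p = 0.00156 over 24 relations). The rho was 0.40 (permutation p = 0.00336, adjusted p = 0.0403). Both named genes had been picked above for their r with Scara5 and stayed in the list mean, so these p are not an independent test. The r fell to 0.35 without mice A09 and B27, and within groups it ran between -0.34 in H-P/C-HF 4-wk and 0.80 in L-P/C-HF 2-d.

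No diet difference of Scara5 passed the test. The diet difference, positive where H-P/C-HF was higher, was on 1451204_at at 2-d 0.03 log2 (95% interval -0.52 to 0.58, p = 0.911, limma), and at 4-wk it was -0.29 (-0.82 to 0.25, p = 0.291), with adjusted p of 0.9998 and 0.999. The difference between the 2 diet effects was -0.32 (-1.09 to 0.45, p = 0.413). The intervals are wide, so these tests do not show that the levels were alike.

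Ferroportin, the exporter, was higher at 4-wk in both diets and on both probe sets. On 1448566_at it was 10.47 at the lowest, 11.06 at the median and 11.31 at the highest in H-P/C-HF 4-wk livers, against 9.62, 10.16 and 10.72 in H-P/C-HF 2-d livers. In L-P/C-HF it was 10.60, 11.15 and 11.55 at 4-wk, against 9.15, 10.36 and 10.68 at 2-d. Of the 12 4-wk mice, 10 in H-P/C-HF and 11 in L-P/C-HF lay above every 2-d mouse of their diet.

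The 4-wk minus 2-d difference on this probe set was 0.85 log2 in each diet (SE 0.13), a 1.80-fold higher level, and on the brighter 1417061_at it was 0.33 in H-P/C-HF and 0.32 in L-P/C-HF (SE 0.09 each). With the RNA quality covariate 1448566_at gave 0.46 and 0.40, and 1417061_at gave 0.30 and 0.28. Ferroportin is also made by Kupffer cells, whose markers rose as given above; over the mice of a group the r between Slc40a1 and the mean of those markers was 0.21 (permutation p = 0.202, adjusted p = 0.344; rho = 0.23, permutation p = 0.154, adjusted p = 0.309), and their part in the time difference was not tested.

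**Figure D3:**
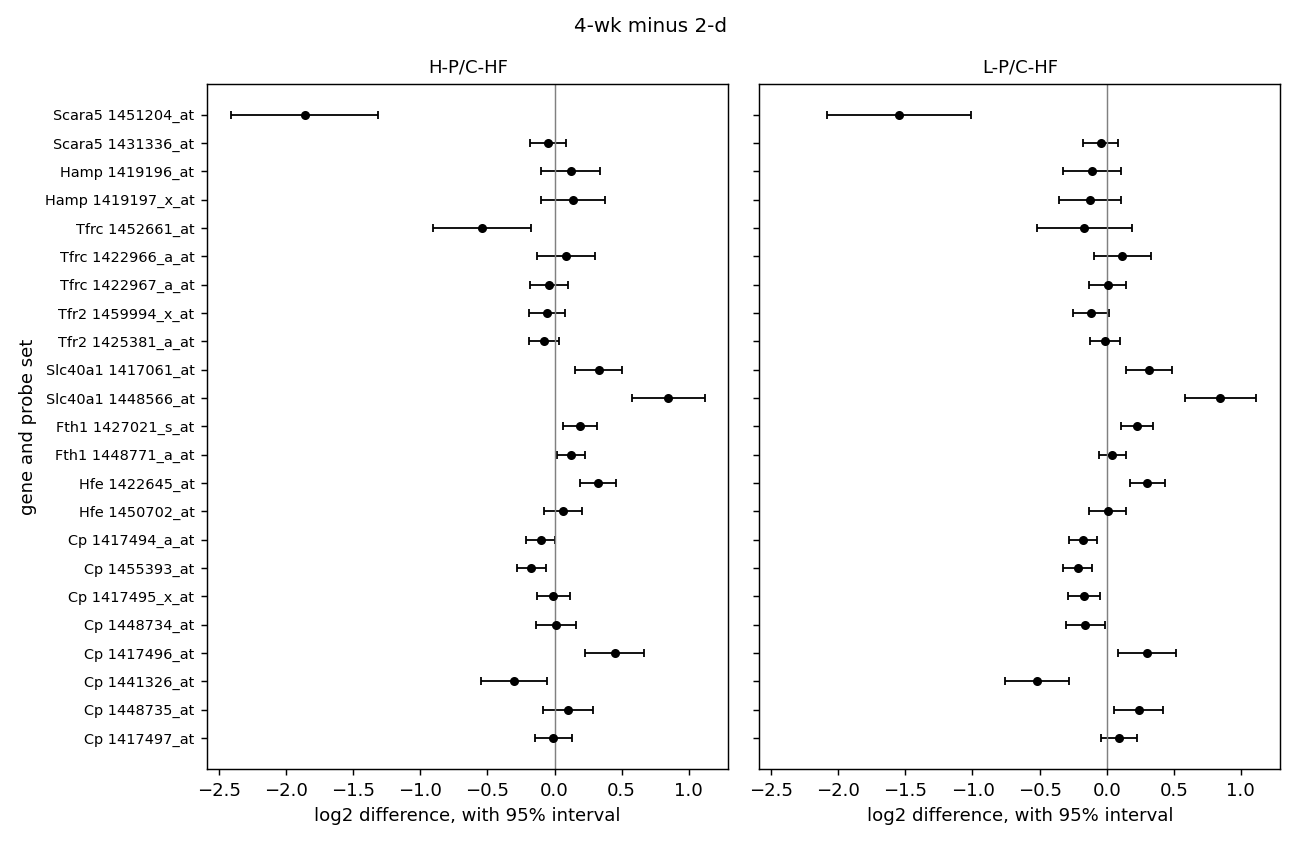
The 4-wk minus 2-d difference (log2, horizontal axis) of the 23 probe sets in H-P/C-HF (left) and L-P/C-HF (right), with 95% intervals. Scara5 1451204_at lies at -1.86 and -1.55, Slc40a1 1448566_at at 0.85 in both panels, and most other probe sets lie close to 0.

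Hfe, the iron-sensing protein, was higher at 4-wk on its brighter probe set 1422645_at. All 12 4-wk mice lay above the 2-d median in each diet, with means of 10.38 ± 0.15 in H-P/C-HF 4-wk and 10.06 ± 0.10 in H-P/C-HF 2-d livers (SD, n = 12 and 11). In L-P/C-HF the means were 10.39 ± 0.11 at 4-wk and 10.08 ± 0.21 at 2-d (SD, n = 12 each), so the differences were 0.32 and 0.30 (SE 0.07 and 0.06). The weaker probe set 1450702_at gave 0.06 and 0.01. With the RNA quality covariate 1422645_at gave 0.26 in H-P/C-HF and 0.23 in L-P/C-HF, and 1450702_at gave 0.00018 and -0.06. Kupffer markers and Hfe deviated together over the mice with r = 0.39 (permutation p = 0.0078, adjusted p = 0.0468; rho = 0.33, permutation p = 0.0294, adjusted p = 0.141), and r was 0.29 without mice A08 and A06.

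Ferritin heavy chain was among the strongest signals of the array and differed little. On 1427021_s_at it was 14.08 ± 0.08 in H-P/C-HF 4-wk, 14.10 ± 0.11 in L-P/C-HF 4-wk, 13.89 ± 0.17 in H-P/C-HF 2-d and 13.88 ± 0.20 in L-P/C-HF 2-d livers (SD), differences of 0.19 and 0.22. The signal followed RNA quality over the mice with r = -0.72 (permutation p = 1e-05, the smallest the permutations can give, adjusted p = 2.4e-04; rho = -0.70, permutation p = 2e-05, adjusted p = 4.8e-04), and r was -0.69 without mice A01 and B28. With RNA quality as a covariate the time differences were 0.02 and 0.03, and the second Fth1 probe set, 1448771_a_at, gave 0.12 and 0.04 without it.

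Transferrin receptor 1 was read by 3 probe sets. On the brightest, 1452661_at, it was 7.41 at the lowest, 7.99 at the median and 9.21 at the highest in H-P/C-HF 4-wk livers, against 8.06, 8.58 and 9.66 in H-P/C-HF 2-d livers. In L-P/C-HF it was 7.40, 8.21 and 8.59 at 4-wk, against 7.89, 8.21 and 8.83 at 2-d. The 4-wk minus 2-d difference was -0.54 in H-P/C-HF (SE 0.18, 7 of 12 mice below every 2-d mouse) and -0.17 in L-P/C-HF (SE 0.18), while 1422966_a_at gave 0.09 and 0.12 and 1422967_a_at gave -0.04 and 0.01. All 3 probe sets, once RNA quality was a covariate, were below 0 in both diets: 1452661_at gave -0.66 in H-P/C-HF and -0.30 in L-P/C-HF, 1422966_a_at -0.13 in each, and 1422967_a_at -0.12 and -0.08.

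H-P/C-HF mice had 0.33 log2 more Tfrc signal than L-P/C-HF mice at 2-d on this probe set (95% interval -0.03 to 0.70, p = 0.0721, adjusted p = 0.9998), with 3 of 11 mice above every L-P/C-HF mouse, which did not pass the test. At 4-wk the difference was -0.04 (-0.40 to 0.32, p = 0.830).

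**Figure D4:**
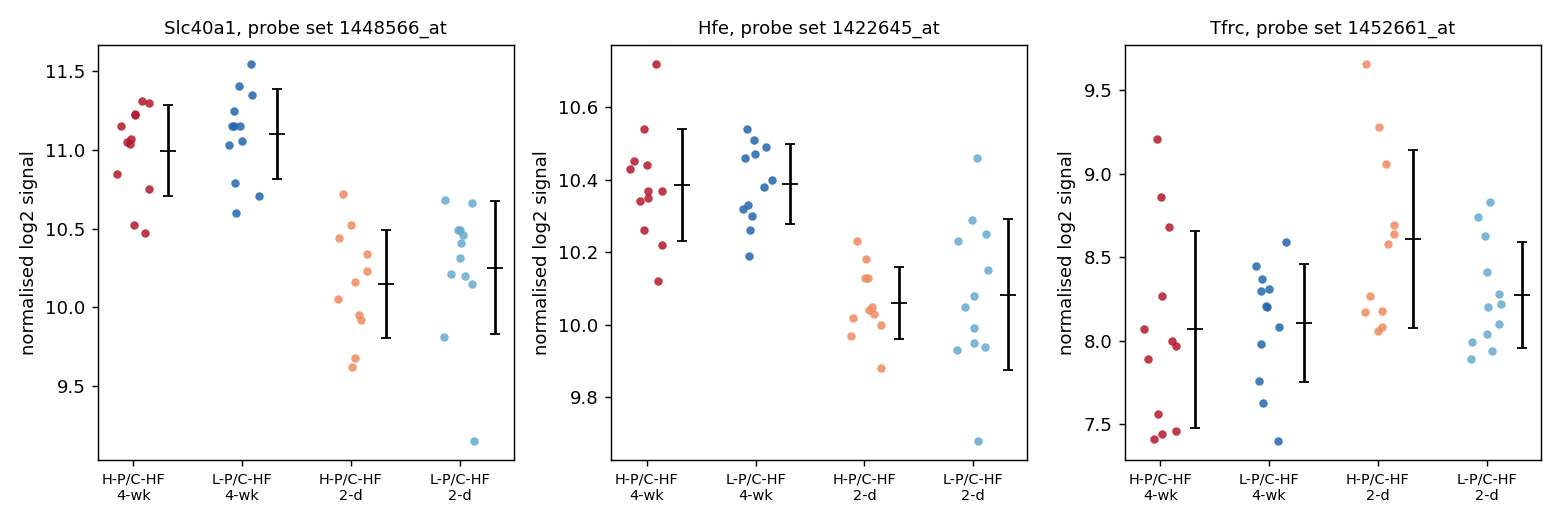
Normalised log2 signal (vertical axes) of Slc40a1 1448566_at, Hfe 1422645_at and Tfrc 1452661_at in the 4 groups, 1 point per mouse, with mean and SD beside the points. The Slc40a1 and Hfe points of the 4-wk groups mostly lie higher than those of the 2-d groups, and the Tfrc points spread widely within each group.

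The gene whose deviations were most like those of Tfrc was Slc11a2, which encodes the divalent metal transporter that carries iron out of endosomes (r = 0.62, rho = 0.57, and 0.59 without the 2 farthest mice). It was followed by Rhob, a small GTPase (r = 0.61), Clasp1 and Mapre1, microtubule-associated proteins (r = 0.60 each), and Rcan1, a calcineurin regulator (r = 0.59). Within groups the r of Tfrc and Slc11a2 ran between -0.11 and 0.88, and that of Tfrc and Clasp1 between 0.59 and 0.63. The time differences of Slc11a2 did not pass (0.07 in H-P/C-HF and 0.00 in L-P/C-HF, adjusted p = 0.849 and 0.995).

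Hepcidin was among the bright signals and differed little between groups. On 1419196_at it was 12.94 at the lowest, 13.46 at the median and 13.66 at the highest in H-P/C-HF 4-wk livers, against 13.14, 13.36 and 13.60 in L-P/C-HF 4-wk livers. At 2-d it was 11.95, 13.33 and 13.72 in H-P/C-HF, against 13.13, 13.52 and 13.70 in L-P/C-HF. Mouse B31 alone held the value of 11.95, and the groups otherwise overlapped.

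The diet difference at 2-d was -0.19 on 1419196_at (95% interval -0.42 to 0.03, p = 0.0882) and -0.23 on 1419197_x_at (p = 0.0521), with adjusted p of 0.9998 for both. Without B31, an alternative chosen after the values were seen, it was -0.06 (p = 0.441) and -0.10 (p = 0.256). The 4-wk minus 2-d differences on 1419196_at were 0.12 in H-P/C-HF (SE 0.11) and -0.11 in L-P/C-HF (SE 0.11). They were 0.22 in H-P/C-HF and -0.00096 in L-P/C-HF with RNA quality as a covariate (SE 0.13 each).

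Mice carry a second hepcidin gene, Hamp2, a near-identical copy whose probe sets may share signal with those of Hamp, so the values of both are uncertain to that extent. On 1436643_x_at Hamp2 rose by 0.55 log2 at 4-wk in H-P/C-HF (SE 0.17, adjusted p = 0.0445, 11 of 12 mice above the 2-d median), and its difference was 0.28 in L-P/C-HF (adjusted p = 0.427). With the RNA quality covariate the H-P/C-HF difference was 0.53 (adjusted p = 0.273). At 4-wk H-P/C-HF livers had 0.42 more than those on L-P/C-HF (p = 0.0173, adjusted p = 0.999), which did not pass.

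The promoters of both hepcidin genes are shown because the genes are near-identical copies, whose probe sets here may share signal. The stretch ahead of the start holds the elements through which BMP/SMAD and STAT3 signals are known to act on Hamp. The sequences are from RefSeq (GRCm38.p6) on the minus strand, chr7:30944078-30944178 for Hamp and chr7:30924227-30924327 for Hamp2, 101 bases each, written 5′ to 3′. Capitals mark the GGCGCC element, or the bases aligned to it, and the TTCNNNGAA match.
Hamp: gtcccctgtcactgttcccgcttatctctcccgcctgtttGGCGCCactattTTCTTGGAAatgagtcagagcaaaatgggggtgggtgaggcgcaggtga
Hamp2: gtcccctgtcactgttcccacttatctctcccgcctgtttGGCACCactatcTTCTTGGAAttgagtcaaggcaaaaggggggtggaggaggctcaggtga
The stretches matched at 91 of 101 positions without gaps. GGCGCC, searched on both strands, began 109 bases before the annotated start of Hamp and was not in the window of Hamp2, where the aligned bases differed by G4A, counted from the first base of the element in Hamp. TTCNNNGAA, also searched on both strands, began 97 bases before the start of Hamp and 94 bases before that of Hamp2, with the same 9 bases in both. Of all 32851 promoter windows of 300 bases, 11.9% held GGCGCC and 8.3% held TTCNNNGAA, so a match alone is common. Among the members with a window, GGCGCC was also in 1 of those of Tfrc, 89 bases before the start, and TTCNNNGAA was in none besides Hamp. No window of Scara5, Slc40a1 or Trf was used here.

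Tfr2, expressed in hepatocytes, had means between 12.07 and 12.19 on 1459994_x_at in the 4 groups, and its time differences were -0.06 in H-P/C-HF and -0.12 in L-P/C-HF (SE 0.07 each). On 1425381_a_at, with means between 11.79 and 11.86, they were -0.08 and -0.01, and the diet differences were 0.0070 at 2-d and -0.06 at 4-wk. For time, adding RNA quality as a covariate, 1459994_x_at gave -0.12 and -0.19 and 1425381_a_at gave -0.15 and -0.09. The diet differences on 1459994_x_at were -0.04 at 2-d (95% interval -0.17 to 0.10) and 0.02 at 4-wk (-0.11 to 0.15). The probe set shared by Trf and Srprb, at means between 14.26 and 14.30, had time differences of 0.03 and 0.02 and diet differences of -0.02 at 2-d and -0.01 at 4-wk, with no diet comparison under p = 0.05.

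Ceruloplasmin, a ferroxidase of plasma and also an acute phase protein, was the only member with any diet comparison below an unadjusted p of 0.05. Over all probe sets, 0.0133% were called for diet at 2-d (6 probe sets), 0% at 4-wk, 0% for the difference between the diet effects and 0.0511% for the mean of both times (23 probe sets). At an unadjusted p under 0.05 the shares were 3.52%, 2.76%, 1.63% and 4.56% in that order. None of the 23 member probe sets was called in any of the 4 comparisons, and 5, 2, 0 and 4 lay below the unadjusted threshold, all of them Cp and all lower in H-P/C-HF. In all, 15 of 23 probe sets were lower in H-P/C-HF at 2-d and 16 of 23 at 4-wk, with medians of -0.04 and -0.03 log2 beside medians of 0.01 and -0.01 over all probe sets.

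On Cp probe set 1441326_at the signal was 7.32 at the lowest, 7.97 at the median and 8.30 at the highest in H-P/C-HF 2-d livers, against 7.89, 8.40 and 9.36 in L-P/C-HF 2-d livers. All 11 mice on H-P/C-HF had less than the median of L-P/C-HF, and 4 had less than every mouse of that diet. At 4-wk it was 7.09, 7.67 and 8.11 in H-P/C-HF, against 7.53, 7.95 and 8.36 in L-P/C-HF, and 11 of 12 mice on H-P/C-HF were under that median. The diet difference was -0.48 at 2-d (SE 0.12, p = 2.89e-04, adjusted p = 0.397) and -0.26 at 4-wk (SE 0.12, p = 0.0353, adjusted p = 0.999), and the mean of both times was -0.37 (SE 0.09, p = 7.91e-05, adjusted p = 0.105).

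On 1417496_at all 11 mice of H-P/C-HF at 2-d also had less than the median of L-P/C-HF, with a difference of -0.33 (SE 0.11, p = 0.0039, adjusted p = 0.9998), and 11 of 12 mice did so at 4-wk, with -0.18 (p = 0.0961). The differences at 2-d were -0.19 on 1417495_x_at (p = 0.00381), -0.17 on 1455393_at (p = 0.00408) and -0.11 on 1417494_a_at (p = 0.0480) and -0.15 on 1448734_at (p = 0.0525), and the dimmest 2 probe sets, 1448735_at and 1417497_at, had 0.13 and 0.06. For the mean of both times, 1441326_at passed with cyclic loess scaling (adjusted p = 0.0435), and with the replicate number as a block (adjusted p = 0.0359). With array weights 2 Cp probe sets passed, the lower adjusted p being 0.0286.

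**Figure D5:**
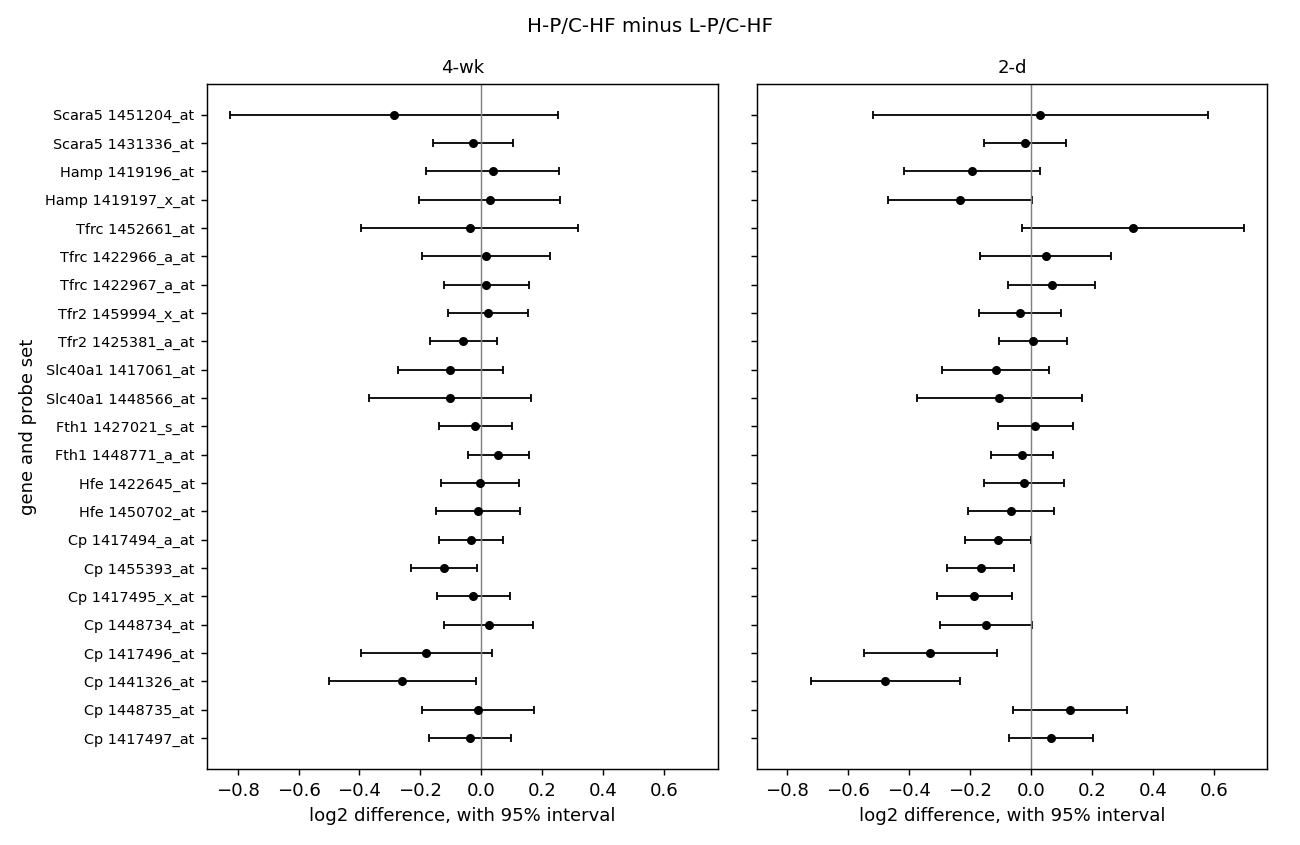
The diet difference (log2, horizontal axis, positive where H-P/C-HF was higher) of the 23 probe sets at 4-wk (left) and at 2-d (right), with 95% intervals. At 2-d the Cp probe sets 1441326_at and 1417496_at lie at -0.48 and -0.33, and no difference passed the adjusted test.

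With time the Cp probe sets ran in opposite directions. On 1417496_at the 4-wk minus 2-d difference was 0.45 in H-P/C-HF and 0.30 in L-P/C-HF, and on 1441326_at it was -0.30 and -0.52. On the brighter 1417494_a_at, 1455393_at, 1417495_x_at and 1448734_at it was -0.10, -0.17, -0.01 and 0.01 in H-P/C-HF. In L-P/C-HF these gave -0.18, -0.215, -0.17 and -0.16. The dimmest, 1448735_at and 1417497_at, gave 0.10 and -0.01 in H-P/C-HF, and 0.24 and 0.09 in L-P/C-HF. No single direction over all probe sets can therefore be given for the gene. With the RNA quality covariate 1417496_at gave 0.14 and -0.06, and 1441326_at gave -0.40 and -0.64.

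Members also varied together among mice of the same group. Of 28 pairs of the 8 genes, taken by their brightest probe set, 8 passed at an adjusted p of 0.05 for Pearson's r, and 6 of these passed for Spearman's rho too. How often pairs of other genes would pass was not computed, and shifts shared by whole arrays were not removed. The count therefore does not set these genes apart from others. Tfr2 and Hfe had r = 0.63 (permutation p = 2e-05, adjusted p = 2.8e-04; rho = 0.48, permutation p = 0.00138, adjusted p = 0.00966), with 0.59 without mice A06 and A24 and 0.20 to 0.80 within groups. Tfr2 and Slc40a1 had r = 0.59 (permutation p = 1e-05, the smallest possible, adjusted p = 2.8e-04; rho = 0.66, permutation p = 1e-05, adjusted p = 2.8e-04), with 0.57 without the same mice and 0.40 to 0.84 within groups.

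Cp followed Tfr2 with r = 0.48 (permutation p = 0.00366, adjusted p = 0.0171; rho = 0.55, permutation p = 8e-05, adjusted p = 0.00112) and Slc40a1 with r = 0.46 (permutation p = 9.2e-04, adjusted p = 0.00859; rho = 0.53, permutation p = 3.3e-04, adjusted p = 0.00308). Fth1 ran against Cp with r = -0.43 (permutation p = 0.00907, adjusted p = 0.0318; rho = -0.45, permutation p = 0.00211, adjusted p = 0.0118), negative in all 4 groups. With RNA quality removed from both, that r was -0.40 and the r of Tfr2 and Hfe was 0.60.

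Hamp and Slc40a1 had r = 0.42 (permutation p = 0.00277, adjusted p = 0.0155; rho = 0.31, permutation p = 0.0343, adjusted p = 0.120). It was 0.27 without mice B31 and B44. Within the L-P/C-HF groups, which hold neither mouse, it was 0.57 at 4-wk and 0.45 at 2-d. Within the H-P/C-HF groups it was 0.08 at 4-wk and 0.62 at 2-d. The r of Hamp and Cp was 0.36 over all mice and 0.16 without B31 and B44. At 4-wk and 2-d it was 0.27 and 0.19 in L-P/C-HF, and 0.30 and 0.75 in H-P/C-HF. The genes most like Hamp were Apoh (r = 0.60), Atg2a (r = 0.59), Apoa5 (r = 0.59), Tatdn2 (r = 0.57) and Zcchc7 (r = 0.57), of which Apoh and Apoa5 encode plasma apolipoproteins of hepatocytes. Without B31 and B44 their r fell to 0.52, 0.33, 0.42, 0.47 and 0.42 in that order. No pair with Scara5 passed.

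The wider iron pathway was followed through 74 further genes measured in 4 lists. For time, 8 were called higher and 3 lower in H-P/C-HF (14.9%), and 5 higher and 4 lower in L-P/C-HF (12.2%), beside 6.69% and 6.87% of all probe sets, which include many dim ones. Those called in both diets, named after their values were seen, were 4 higher and 2 lower.

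Bmp6, the ligand that switches on Hamp, rose by 0.36 in H-P/C-HF (adjusted p = 0.00556) and 0.39 in L-P/C-HF (adjusted p = 0.00218), and Smad6, an inhibitor of the same pathway, rose by 0.50 and 0.51 (adjusted p = 0.00305 and 0.00168). Tmprss6, which dampens the pathway, and Id1, one of its targets, did not pass in either diet. Id3, another target, had means of 8.44 at 4-wk and 7.76 at 2-d in H-P/C-HF, and 8.63 and 8.37 in L-P/C-HF. With the RNA quality covariate its differences were 0.70 and 0.29 (limma, adjusted p = 0.134 and 0.92). Hmox1, heme oxygenase, rose by 0.58 and 0.63 (adjusted p = 0.00484 and 0.00146), and Blvrb, a biliverdin reductase, rose by 0.35 and 0.26 (adjusted p = 0.00496 and 0.0447).

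Slc39a14, a zinc and iron importer of hepatocytes, fell by 0.26 and 0.35 (adjusted p = 0.0276 and 0.00148), and Cpox, an enzyme of heme synthesis, fell by 0.48 and 0.46 (adjusted p = 0.00229 and 0.00239). With RNA quality as a covariate, of these 6 genes Slc39a14 passed in both diets, at -0.36 and -0.46 (adjusted p = 0.0143 and 9.09e-04), and the other 5 did not pass in either. Over the 4 lists no gene was then called higher. Those called lower, 2 in H-P/C-HF and 3 in L-P/C-HF, were all from the list for iron uptake and transport. Beside Slc39a14 they were Lcn2, at -2.08 and -2.24 (adjusted p = 0.040 and 0.031), and Lrp1 in L-P/C-HF, at -0.40 (adjusted p = 0.0286).

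Between diets none of the 74 genes was called, and 2 lay below an unadjusted p of 0.05 at 2-d and 2 at 4-wk, beside 3.52% and 2.76% of all probe sets. For the mean of both times 8 of the 74 did, beside 4.56% of all probe sets, with Blvrb at -0.19 (p = 0.00205, adjusted p = 0.548) and Id3 at -0.40 (p = 0.00447, adjusted p = 0.742). At 2-d the genes were Id3, a BMP target, at -0.61 (p = 0.00283, all 11 mice on H-P/C-HF under the median of L-P/C-HF) and Blvrb at -0.23 (p = 0.00687), each with an adjusted p of 0.9998. At 4-wk they were Hamp2, given above, and Abcg2, a porphyrin exporter, at -0.27 (p = 0.00658, adjusted p = 0.999). Marco was 0.62 lower in H-P/C-HF at 4-wk (p = 0.00189, adjusted p = 0.999), when all 14 Kupffer cell markers lay below 0 with a median of -0.33 and none was called.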

How the data were processed

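Liver total RNA of 48 mice was hybridised to Affymetrix whole-genome mouse arrays, 1 per mouse. The deposited values are log2 signals that the authors made by Robust Multichip Average (RMA, version not given in the sources used here), that is background correction, between-array normalisation and summarisation of the probes of each set. Their base was read from the range of values (3.16 to 14.81). RMA compresses differences of dim probe sets. The array medians lay between 6.73 and 6.91 in the 47 arrays used, and the number of mice limits the precision. Groups came from the sample labels, where HPHC was taken as H-P/C-HF and HFHC as L-P/C-HF; the labels share replicate numbers between groups but do not say that a number pairs mice.

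Of 45101 probe sets 64 controls were left out. A linear model with 1 coefficient per group was fitted with limma 3.58.1 in R 4.3.3 (eBayes with trend, two-sided, Benjamini-Hochberg over 45037 probe sets, threshold 0.05). Gene symbols came from the platform annotation: 34945 probe sets had 1 symbol, 932 several and 9160 none, and lists used each gene's brightest probe set with a symbol of its own. The methods' Global Error Assessment was not run; their one-way ANOVA was an alternative. The fit was tested on simulated data, in which 89 of 100 probe sets shifted by 0.5 log2 and 100 of 100 shifted by 1 were recovered for diet at 2-d. The simulated noise was normal and independent for each probe set, without variation shared between probe sets and without outlying arrays. These shares therefore do not give the power for the members, and a difference that was not called may still be present.

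The members and the 15 gene lists (198 members, 185 measured) were chosen with earlier results of these data known. Named were all member probe sets, some genes of other lists with the smallest diet p, and the 5 genes most like Scara5, Hamp and Tfrc over mice. Iron genes and cell markers named for time were chosen after their values were seen. Correlations used deviations from group means, permuting mice within groups 100000 times; 28 pairs were computed in place of 36, since Trf has no probe set of its own. The 24 relations to marker means and RNA quality were added after the data were seen. Sequences were cut from RefSeq promoter windows with Python 3.11.15.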

Additional observations from a re-analysis of the deposited data

How the results depend on the processing

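None of the 23 member probe sets was called for diet at 2-d, at 4-wk or for the difference between the diet effects under any alternative run. The time difference of Scara5 (1451204_at) lay between -2.09 and -1.78 in H-P/C-HF and between -1.81 and -1.55 in L-P/C-HF under all alternatives except the mean of both probe sets (-0.96 and -0.80). The mean of both Slc40a1 probe sets gave 0.59 and 0.58, and Fth1 gave 0.02 and 0.03 with the RNA quality covariate, whose values for Tfrc, Tfr2, Hamp, Hfe and Cp stand in the report. The cause was not tested.

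Counts of called probe sets moved more. For diet at 2-d (6, of which 4 higher) there were 23 with cyclic loess (19 higher), 4 with median centring (2 higher), 12 among the brighter probe sets alone, 1 with the replicate block and 0 with ordinary ANOVA. For diet at 4-wk (0, with 1243 at an unadjusted p under 0.05) there were 10 with array weights, 1 with cyclic loess and 2 with the replicate block. For the mean of both times (23) there were 95 with array weights and 72 with cyclic loess. For time in H-P/C-HF (3012, of which 2122 higher) there were 5701 with array weights (2969 higher) and 622 with the RNA quality covariate. For time in L-P/C-HF (3096, of which 2426 higher) there were 4131 with cyclic loess (2733 higher), 464 with the RNA quality covariate and 1659 with ordinary ANOVA. No probe set was called for the difference between the diet effects under any alternative, and 733 lay under an unadjusted p of 0.05 in limma.

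Of the diet differences of the members' brightest probe sets, 255 kept their sign and 19, all small and with adjusted p of at least 0.935, changed it. Scara5 at 2-d was -0.051 with B25 included and -0.0043 with the replicate block. Without A01, A09 and A24, Tfrc at 4-wk was 0.0056, Tfr2 at 4-wk -0.011, Fth1 at 2-d -0.032 and its difference of diet effects 0.021. With array weights Tfr2 at 4-wk was -0.025, and the differences of diet effects were -0.036 for Slc40a1 and -0.0069 for Cp. With the mean of all probe sets Tfr2 was -0.019 at 4-wk and -0.0043 for the difference, and Fth1 was -0.0072 at 2-d, 0.0175 at 4-wk and 0.025 for the difference. With the RNA quality covariate Fth1 at 4-wk was 0.0044 and Hfe at 4-wk 0.0063. Hfe at 4-wk was 0.012 with median centring and 0.0033 with cyclic loess, and Fth1 at 2-d was -0.0021 with the replicate block.

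Mice of different groups share replicate numbers, and the labels do not say what a number marks. Since not every same-numbered pair correlated over 0.1, the numbers were not used as pairs. Between H-P/C-HF 2-d and L-P/C-HF 2-d the mean correlation of same-numbered mice was 0.22, against -0.02 for other numbers, with 7 of 11 over 0.1, and in the other 5 pairs of groups it lay between -0.14 and 0.0092. Whether the numbers mark something shared at 2-d was not tested further. With this block Cp 1441326_at passed for the mean of both times, as given in the report, and no other member call changed.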

Other observations

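The array of mouse B25, which was left out, read 8.57 for Scara5 on 1451204_at and 10.49 for Slc40a1 on 1417061_at, the second of these below every other H-P/C-HF 2-d mouse. It also held the lowest sinusoidal endothelial marker mean of that group, 7.59, against 7.87 for the next lowest mouse, and a Kupffer cell marker mean of 8.11. The Affymetrix control probe sets of Tfrc, which read the 3′ end, the middle and the 5′ end of the transcript, had means of 5.04, 4.50 and 4.18 in H-P/C-HF 4-wk, 5.12, 4.47 and 4.15 in L-P/C-HF 4-wk, 5.04, 4.46 and 4.13 in H-P/C-HF 2-d and 5.05, 4.42 and 4.10 in L-P/C-HF 2-d livers.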
